A study of Homo sapiens with 9 samples.

Results

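The 10 genes studied here belong to the actomyosin contractile apparatus, and their RNA was followed through PTBP1 knockdown in U251 cells, an established human glioblastoma line. ACTA2, ACTB, ACTG1, TAGLN, CNN1, MYL9, TPM1, TPM2, ACTN1 and MYH9 were taken by exact symbol from a table of 22295 entries, and all 10 were found. They encode actins, tropomyosins, a myosin heavy chain and a myosin light chain, an alpha-actinin, and the actin-binding proteins transgelin and calponin. The measurement was bulk RNA-seq, given per gene and library as FPKM, fragments scaled to transcript length and to the mapped fragments of the library. The 9 libraries fell into 3 groups of 3. In sh-Luci-3d, cells carried a control lentivirus against luciferase for 3 days. In sh-Ptbp1-3d and sh-Ptbp1-7d, cells carried a lentivirus with a short hairpin RNA against PTBP1 for 3 and 7 days. All groups are thus infected cells of 1 line, and the control exists at day 3 only, so the hairpin and the time since infection cannot be told apart at day 7. The study's scheme moves infected cells into a neuronal induction medium on the second day. Its growth medium held fetal bovine serum, whereas the induction medium is listed with forskolin and dorsomorphin and with no serum. The study speaks of genes changing in these libraries as induction went on, but does not state outright which medium the sequenced cells were in. If they followed the scheme, time without serum and with these compounds cannot be told apart from the hairpin and the time since infection either. Nothing in the labels says that the 3 libraries of a group came from separate infections, so the p-values measure the spread between these libraries, which may be technical. The number of reads behind each value is unknown.

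In nonmuscle cells, ACTB and ACTG1 polymerise into filaments that bipolar bundles of myosin II pull against each other. Tropomyosins lie along the filament and alpha-actinins tie filaments into bundles and anchor them at adhesions. Many of these genes carry promoter elements for serum response factor (SRF), whose coactivators of the myocardin-related transcription factor family (MRTFA and MRTFB) are held in the cytoplasm by free actin monomers. ACTA2, TAGLN, CNN1 and MYL9 are best known from smooth muscle and from myofibroblasts. PTBP1, the polypyrimidine tract binding protein, represses exons, and TPM1 and ACTN1 are textbook targets of that repression. The FPKM of a gene sums its transcripts, so exon choice was not measured here.

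PTBP1 itself averaged 115.7 ± 7.58 FPKM (SD, n = 3) in the control, 63.9 ± 2.67 at day 3 of the knockdown and 50.5 ± 0.645 at day 7. Its fall from sh-Luci-3d to sh-Ptbp1-3d was -0.85 on the log2 scale (limma, adjusted p = 0.00314). PTBP2, a paralog that PTBP1 is known to repress, averaged 6.54 ± 1.68, 17.8 ± 1.34 and 27.1 ± 1.58 FPKM in the same order, with a rise at day 3 of 1.46 (adjusted p = 0.00857). Both day 3 calls were lost in some of the other fits that were run. Of 8 astroglial and glioma markers, 5 reached a mean of 1 FPKM. VIM was among them, while GFAP had a mean under 1 FPKM over the 9 libraries and ran from 0.109 to 1.15, and AQP4 stayed under 0.1 FPKM.

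The 10 genes spanned a wide range of levels. In sh-Luci-3d the order of mean FPKM was ACTB, ACTG1, MYH9, ACTN1, TPM1, TPM2, ACTA2, TAGLN, CNN1 and MYL9, and neighbours in that order overlapped between libraries only for TPM2 and ACTA2 and for CNN1 and MYL9. In sh-Ptbp1-7d, ACTA2 stood above TPM1, with no overlap between the libraries of that group. Together the 10 genes took 1.04% ± 0.0385 of all FPKM in sh-Luci-3d, 1.03% ± 0.0564 in sh-Ptbp1-3d and 0.673% ± 0.03 in sh-Ptbp1-7d (SD, n = 3). The 3 sh-Ptbp1-7d libraries lay below all others (exact permutation test, two-sided, p = 0.1 against either group, the smallest p that 3 against 3 allows), and the day 3 groups did not separate (exact p = 0.8). ACTB and ACTG1 made up between 92.6% and 94.4% of that sum in every library, so the share describes these 2 actins.

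**Figure D1:**
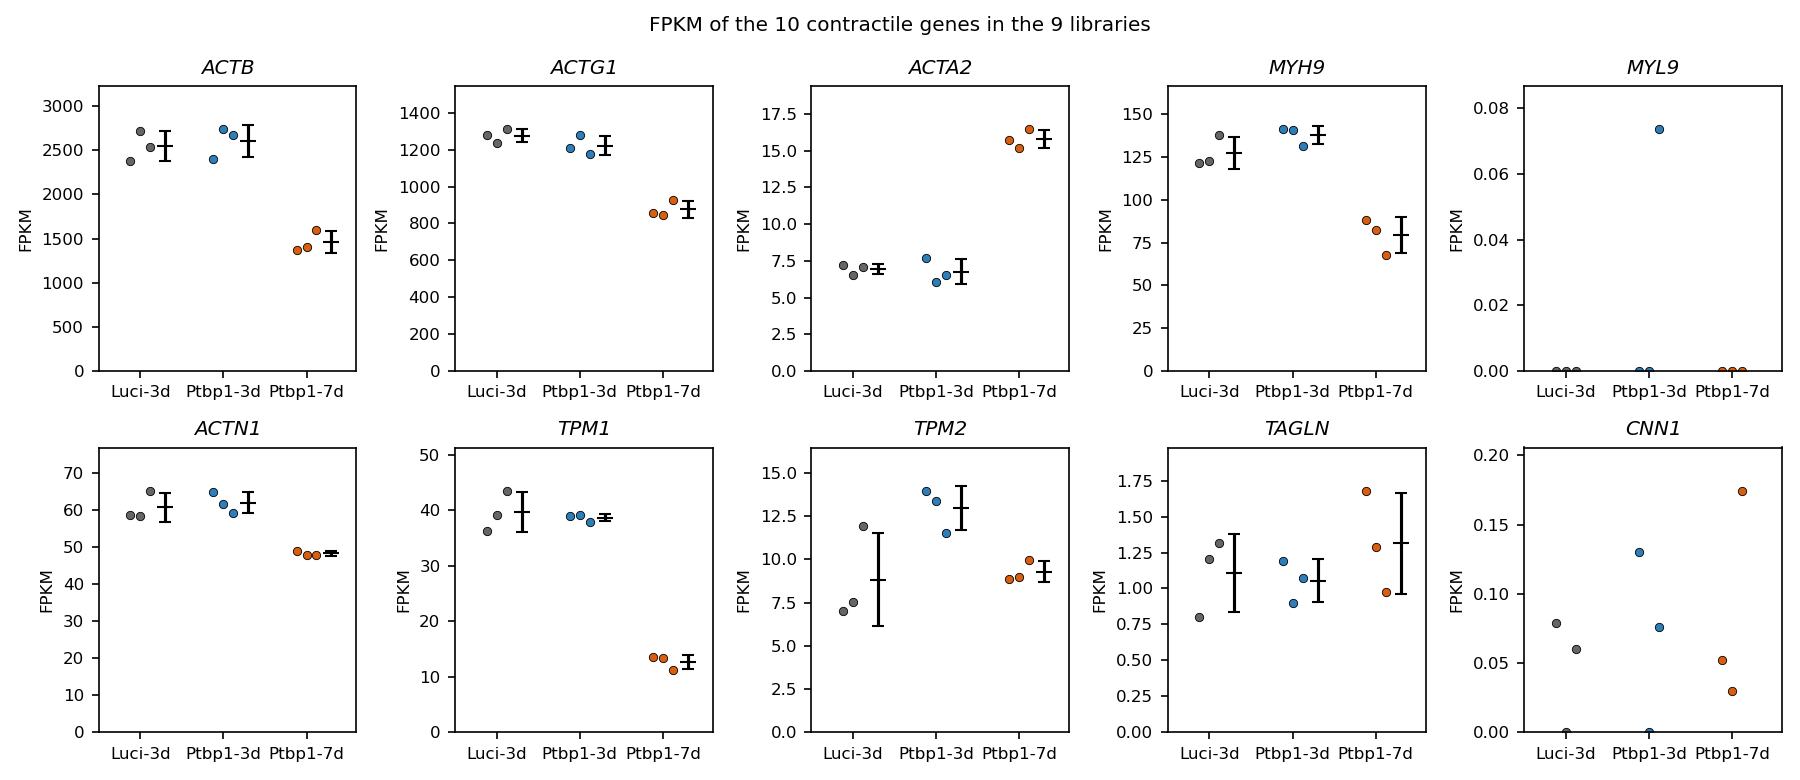
FPKM of the 10 contractile genes, 1 panel per gene with its own linear axis from 0; points are the 9 libraries by group (3 per group, replicate 1 to 3 from left to right), and the bar beside them is the mean ± SD, drawn for the 8 genes that were tested. ACTB, ACTG1, MYH9, ACTN1 and TPM1 sit lower in sh-Ptbp1-7d than in both day 3 groups, ACTA2 sits higher, and MYL9 and CNN1 stay under 0.2 FPKM.

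At day 3 the knockdown and control libraries gave no call for any of the 8 genes that could be tested. Each gene was tested by limma on log2(FPKM + 0.1) among the 15551 entries whose mean reached 0.1 FPKM, and the false discovery rate (FDR) was held at 0.05. CNN1 and MYL9 lay under that mean. Over all entries tested, 0.0322% passed, so few calls were available to any group of genes in this comparison. At an unadjusted p under 0.05, 1 of the 8 passed, against 7.24% of all entries. No gene of the 8 had groups free of overlap, against 10.8% of all entries. Of the 8 log2 fold changes, 7 lay between -0.06 and 0.11, with adjusted p from 0.833 to 0.981.

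TPM2 was the exception in size. This gene, which encodes beta-tropomyosin, stood at 7.00, 7.54 and 11.9 FPKM in sh-Luci-3d and at 14.0, 13.4 and 11.5 in sh-Ptbp1-3d. One control library, replicate 3, lay inside the range of the knockdown libraries. The difference was 0.59 ± 0.174 (log2, SE), with a 95% interval of 0.20 to 0.97 and an unadjusted p of 0.00668, and it did not pass (limma, adjusted p = 0.524). Without sh-Luci-3d replicate 3 it was 0.82 and passed (adjusted p = 0.00600), in a fit where 986 entries passed in place of 5.

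At day 7 the set moved, mostly downward. Against sh-Ptbp1-3d, ACTB, ACTG1, MYH9, ACTN1 and TPM1 fell, ACTA2 rose, and TPM2 and TAGLN did not pass an FDR of 0.01. That is 1 of 8 higher, where 20.3% of all entries tested were higher, and 5 of 8 lower, where 15.5% were lower. More than 2-fold changes were those of ACTA2 (8.31% of all entries were higher by that much) and TPM1 (5.9% were lower by that much). The median log2 difference was -0.48 over the 8 genes and 0.09 over all entries. In 7 of the 8 the groups did not overlap, which held for 62.3% of all entries. When every library was rescaled to the same total (TPM units), the median of all entries moved from 0.09 to 0.20, and the same 6 calls were made in the same directions.

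Against sh-Luci-3d the counts were also 1 higher and 5 lower of 8, beside 20.6% higher and 15% lower of all entries. The groups did not overlap in 6 of the 8, against 55.9% of all entries. The median was -0.43 over the 8 genes and 0.10 over all entries. These 2 comparisons share the day 7 libraries, so they are not separate evidence, and their values are given side by side. Below, FPKM means are given ± SD (n = 3) and log2 changes ± SE. In bulk RNA, fewer cells of one kind and less RNA per cell cannot be told apart.

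**Figure D2:**
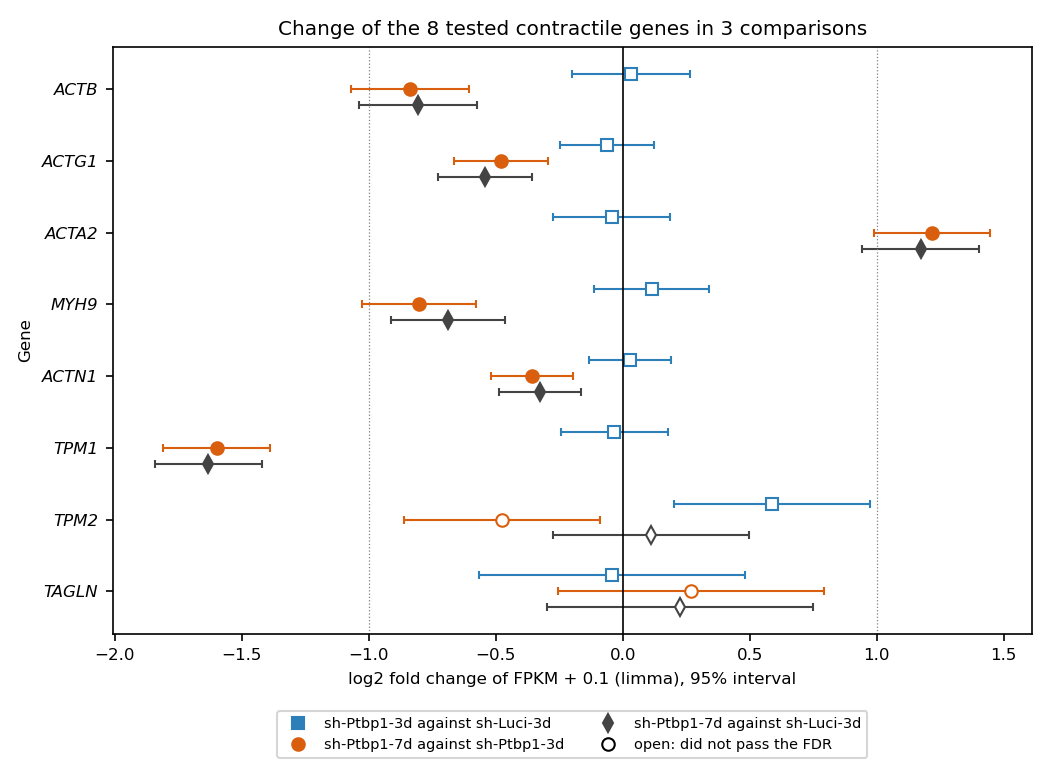
Fold change of FPKM + 0.1 from limma on a log2 scale (x axis) for the 8 tested genes (y axis) in the 3 comparisons, with 95% intervals; filled symbols passed the FDR, open symbols did not, and dotted lines mark 2-fold. The day 3 squares lie near 0 for every gene but TPM2, whereas at day 7 ACTA2 lies at 1.22 and TPM1 at -1.60 against sh-Ptbp1-3d.

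The cytoplasmic actins were the most abundant genes of the set and both fell at day 7. ACTB, on chromosome 7 (GRCh38, 5527147 to 5563784, minus strand), stood at 2379, 2716 and 2539 FPKM in sh-Luci-3d, at 2398, 2736 and 2676 in sh-Ptbp1-3d, and at 1371, 1401 and 1600 in sh-Ptbp1-7d. Every day 7 library lay well below the lowest day 3 library. The change was -0.84 ± 0.105 against sh-Ptbp1-3d (adjusted p = 7.98e-05) and -0.81 against sh-Luci-3d (adjusted p = 0.000104). ACTB is often used as a loading reference, and these libraries held it at 0.559 times its sh-Ptbp1-3d level.

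ACTG1, on chromosome 17 (81509971 to 81523847, minus strand), encodes the other cytoplasmic actin. Its FPKM was 1282, 1237 and 1310 in sh-Luci-3d, 1211, 1279 and 1177 in sh-Ptbp1-3d, and 856, 847 and 929 in sh-Ptbp1-7d. The day 7 libraries were again the lowest and overlapped with no other. The change was smaller than that of ACTB, at -0.48 ± 0.0835 against sh-Ptbp1-3d (adjusted p = 0.000759) and -0.54 against sh-Luci-3d (adjusted p = 0.000328). Under quantile normalization ACTG1 no longer passed, at -0.08 against sh-Ptbp1-3d (adjusted p = 0.386) and -0.19 against sh-Luci-3d (adjusted p = 0.0503). Without the filter on low values neither actin passed 0.01 against sh-Ptbp1-3d (adjusted p = 0.0402 for ACTB and 0.0197 for ACTG1) or against sh-Luci-3d (0.0461 and 0.0121). Of the 50-base windows of the longest coding transcript, 10.3% of ACTB and 3.58% of ACTG1 occur in other annotated genes. The other gene with the most was the pseudogene ACTBP2 for ACTB (5.07%) and the pseudogene ACTG1P20 for ACTG1 (1.22%). ACTG1 holds 0.534% of the ACTB windows. Reads from shared windows could be counted for either gene, and their part in the changes was not tested.

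ACTA2 ran the other way. The gene encodes smooth muscle alpha-actin, a marker of myofibroblasts, and lies on chromosome 10 (88935074 to 88991339, minus strand). It stood at 7.21, 6.53 and 7.10 FPKM in sh-Luci-3d, at 7.71, 6.07 and 6.51 in sh-Ptbp1-3d, and at 15.7, 15.2 and 16.4 in sh-Ptbp1-7d. The 3 day 7 libraries lay close together and far above the other 6. The rise was 1.22 ± 0.104 against sh-Ptbp1-3d (adjusted p = 4.69e-06), or 2.33-fold, and 1.17 against sh-Luci-3d (adjusted p = 6.04e-06). It passed in all 20 alternative fits of each comparison.

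Neighbouring genes overlap ACTA2. FAS, a death receptor gene on the opposite strand, overlaps ACTA2 over 758 bases at its 5′ end and rose too, from 3.41 ± 0.450 to 7.02 ± 0.066 FPKM (1.03, adjusted p = 0.000128). STAMBPL1, also on the opposite strand and overlapping over 40080 bases, changed by 0.14 (adjusted p = 0.299). In addition, 30.1% of the 50-base windows of the longest coding ACTA2 transcript occur in the antisense gene ACTA2-AS1. Whether the reads were counted by strand is not given in the sources used here, and the part of these genes in the rise was not tested.

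Of 10 markers of smooth muscle and pericytes, none of the 5 that could be tested passed from sh-Ptbp1-3d to sh-Ptbp1-7d. Only RGS5 reached a mean of 1 FPKM, MYOCD was listed at 0 in every library, and DES, NOTCH3, CNN1 and ACTG2 lay under a mean of 0.1 FPKM. Their summed level ran from 1.97 to 2.62 FPKM in sh-Luci-3d, from 2.01 to 2.42 in sh-Ptbp1-3d and from 1.48 to 1.73 in sh-Ptbp1-7d. Of 8 fibroblast markers, 5 could be tested, of which 3 rose and 1 fell. A mean of 1 FPKM was reached by 4, and the sum of the list ran from 230 to 266, from 242 to 251 and from 444 to 528 FPKM. Most of that sum was COL1A2, which rose by 1.11 (adjusted p = 3.60e-06). FAP and PDGFRA also rose, by 1.84 and 0.63. THY1 fell by 0.55 (adjusted p = 0.000208), and COL1A1 at -0.58 did not pass (adjusted p = 0.0358). COL3A1, DCN and LUM had means over the 9 libraries under 0.1 FPKM. Of the 8 astroglial and glioma markers, 7 could be tested, of which 1 rose and 2 fell. The one that rose was S100B, by 2.08 (adjusted p = 0.00202), from a mean of 0.115 to 0.797 FPKM. The summed list ran from 4568 to 4877 FPKM in sh-Ptbp1-3d and from 1386 to 1509 in sh-Ptbp1-7d. Most of it was VIM, the intermediate filament vimentin, which fell by 1.91 (adjusted p = 9.79e-08), so the sum describes that gene. CD44 also fell, by 1.41 (adjusted p = 1.12e-06). The other 4 did not pass, with SOX2 at 0.22, SOX9 at -0.29, NES at -0.35 and GFAP at -0.49. None of 10 blood and immune markers reached a mean of 1 FPKM, with sums from 0.547 to 1.21 FPKM. The part of these lists in the members' changes was not tested.

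The sequences before the start sites were searched for the SRF element. That element, the CArG box, is CC, then 6 bases that are each A or T, then GG. A CArG-like element has 1 G or C among those 6 bases, and both patterns read alike on either strand. RefSeq start sites (GRCh38.p14) were matched for 7 of the 10 genes, namely ACTA2, ACTG1, CNN1, TPM1, TPM2, ACTN1 and MYH9, with 12 windows of 250 bases before a start. An exact box lay in 2 of these windows, 1 CArG-like window had no exact box, and 9 held neither. Over all 35116 windows of the same length, 1.16% held an exact box and 5.96% a CArG-like element. The 10 genes were chosen as genes driven by SRF and MRTF, so boxes among them give no separate support for that choice. Some of the 7 genes have several windows, and those of TPM2 overlap, so the 12 windows are not independent. The shares over all windows are given as background only. The ACTA2 window at chr10:88991338-88991587 lies wholly in annotated exons of ACTA2 and FAS and held neither kind. The other ACTA2 window, at chr10:88952774-88953023 (minus strand), lies within the ACTA2 and STAMBPL1 genes and outside annotated exons. It is shown whole because ACTA2 alone rose, with its 2 CArG-like elements, 121 and 71 bases before the start, in capitals.
ACTA2: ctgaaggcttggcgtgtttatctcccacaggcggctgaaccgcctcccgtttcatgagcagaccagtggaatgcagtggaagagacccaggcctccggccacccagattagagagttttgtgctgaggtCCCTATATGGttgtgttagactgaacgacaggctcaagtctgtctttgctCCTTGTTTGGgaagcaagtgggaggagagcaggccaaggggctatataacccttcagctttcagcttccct
The exact boxes belong to 2 genes that fell. The ACTG1 box lies 94 bases before the start used (chr17:81512874-81512903, minus strand). Annotated ACTG1 exons cover 92 bases of that window and most of the box. The ACTN1 box lies 171 bases before 1 of its 4 starts (chr14:68977718-68977747, minus strand), outside annotated exons. Both are shown with flanks and with the box in capitals.
ACTG1: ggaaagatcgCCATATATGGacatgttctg
ACTN1: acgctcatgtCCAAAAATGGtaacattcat
No box of either kind was found in the windows of TPM1, TPM2, CNN1 or MYH9. That says only that these letters are not within 250 bases of the starts used. The only TPM1 window (chr15:63048239-63048488) lies inside the gene and wholly in annotated exons of TPM1 and TPM1-AS. Annotated exons also cover part or all of most other windows. A match is a sequence and no measurement of SRF binding.

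The myosin members were a pair of opposites in level. MYH9, the heavy chain of nonmuscle myosin IIA (chromosome 22, 36281277 to 36388067, minus strand), stood at 121, 123 and 138 FPKM in sh-Luci-3d, at 141, 141 and 132 in sh-Ptbp1-3d, and at 88.2, 82.6 and 67.6 in sh-Ptbp1-7d. The day 7 libraries lay below every day 3 library, with the lowest in replicate 3. MYH9 fell by 0.80 on the log2 scale against sh-Ptbp1-3d (SE 0.102, adjusted p = 8.56e-05) and by 0.69 against sh-Luci-3d (adjusted p = 0.000251). MYL9, a regulatory light chain best known from smooth muscle (chromosome 20, 36541484 to 36551447, plus strand), was listed at 0 in 8 of the 9 libraries and at 0.0735 FPKM in sh-Ptbp1-3d replicate 3. Other light chain genes, MYL6, MYL12A and MYL12B, were far more abundant, with sh-Ptbp1-3d averages of 661, 215 and 285 FPKM.

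ACTN1, the filament crosslinker alpha-actinin-1 (chromosome 14, 68874143 to 68979440, minus strand), had the smallest change that passed. Its FPKM was 58.6, 58.5 and 65.3 in sh-Luci-3d, 65.0, 61.8 and 59.4 in sh-Ptbp1-3d, and 49.1, 48.1 and 48.0 in sh-Ptbp1-7d. The day 7 libraries lay within about 1 FPKM of each other and below all others. ACTN1 fell by 0.36 against sh-Ptbp1-3d (SE 0.0729, adjusted p = 0.00209) and by 0.33 against sh-Luci-3d (adjusted p = 0.00347). The former call was lost without sh-Ptbp1-3d replicate 1 (adjusted p = 0.0135) or sh-Ptbp1-7d replicate 2 (0.0106). The latter was lost without any one of the sh-Ptbp1-7d replicates 1, 2 and 3 (0.0112, 0.0159 and 0.0106), with only the 2 groups fitted (0.0116) and with no intensity trend (0.0113).

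The tropomyosins split. TPM1, alpha-tropomyosin (chromosome 15, 63042632 to 63071915, plus strand), stood at 36.4, 39.2 and 43.5 FPKM in sh-Luci-3d, at 38.9, 39.2 and 37.9 in sh-Ptbp1-3d, and at 13.6, 13.4 and 11.3 in sh-Ptbp1-7d. The highest day 7 library was well under the lowest day 3 library. TPM1 fell by 1.60 against sh-Ptbp1-3d (SE 0.0954, adjusted p = 3.58e-07) and by 1.63 against sh-Luci-3d (adjusted p = 2.95e-07), a 3.03-fold and a 3.10-fold drop that made it the member with the largest change. It passed in all 20 alternative fits of each comparison. GENCODE v29 lists 34 transcripts of TPM1 and 21 of ACTN1, and a change in which of them are made can move an FPKM summed over the gene; this was not tested. In TPM1, 42.1% of the 50-base windows of the longest coding transcript also occur in TPM1-AS on the opposite strand.

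TPM2 (chromosome 9, 35681992 to 35690121, minus strand) had lower values at day 7 than at day 3 of the knockdown, but the difference did not pass. Its day 7 libraries, at 8.88, 8.9998 and 9.97 FPKM, lay below the sh-Ptbp1-3d libraries and inside the range of sh-Luci-3d. The change was -0.47 ± 0.174 against sh-Ptbp1-3d (adjusted p = 0.0424) and 0.11 against sh-Luci-3d (adjusted p = 0.627). The former passed when only those 2 groups were fitted (adjusted p = 0.00276) and without sh-Luci-3d replicate 3 (0.00153).

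TAGLN and CNN1, the transgelin and calponin genes that mark smooth muscle, stayed low. TAGLN (chromosome 11, 117199321 to 117204782, plus strand) stood at 0.799, 1.20 and 1.31 FPKM in sh-Luci-3d, at 1.19, 0.900 and 1.07 in sh-Ptbp1-3d, and at 1.68, 1.28 and 0.977 in sh-Ptbp1-7d. The 3 groups overlapped. The day 7 change was 0.27 ± 0.237 against sh-Ptbp1-3d, with a 95% interval of -0.26 to 0.79 (adjusted p = 0.372). A rise or fall within those bounds is compatible with these values. Of its 50-base windows, 18.6% also occur in PCSK7, which overlaps it on the opposite strand. CNN1 (chromosome 19, 11538717 to 11550323, plus strand) was listed at 0.0787, 0 and 0.0603 FPKM in sh-Luci-3d, at 0.130, 0 and 0.0763 in sh-Ptbp1-3d, and at 0.052, 0.0302 and 0.174 in sh-Ptbp1-7d, and was not tested.

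Ratios within a library do not depend on how that library was scaled. The ratio of ACTA2 to ACTB averaged 0.00274 ± 0.000316 in sh-Luci-3d, 0.00262 ± 0.000525 in sh-Ptbp1-3d and 0.0109 ± 0.000594 in sh-Ptbp1-7d (SD, n = 3), a 4.19-fold gain from day 3 to day 7 of the knockdown. ACTA2 was thus still about 1 part in 100 of ACTB. The ratio of ACTG1 to ACTB averaged 0.503 ± 0.0431, 0.471 ± 0.0326 and 0.603 ± 0.0217. The ratio of TPM2 to TPM1 averaged 0.220 ± 0.0471, 0.335 ± 0.0278 and 0.737 ± 0.129, and separated all 3 groups. ACTN4, the second nonmuscle alpha-actinin, stood to ACTN1 at 4.42 ± 0.0359, 4.38 ± 0.0354 and 3.23 ± 0.203. That ratio also separated all 3 groups, though the day 3 groups differed by only -0.015 (log2). For each of these 4 ratios the day 7 libraries did not overlap with either day 3 group (exact permutation test, two-sided, p = 0.1, the smallest that 3 against 3 allows, adjusted p = 0.12 over 12 tests). Between the day 3 groups the exact p was 0.1 for TPM2 to TPM1 and for ACTN4 to ACTN1, 0.4 for ACTG1 to ACTB and 0.9 for ACTA2 to ACTB.

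The members also differed in how closely they tracked one another. Likeness was taken as the root mean square difference of log2(FPKM + 0.1), centred per gene, over the 9 libraries. The closest pair was ACTG1 and ACTN1 (0.107), followed by ACTB and ACTG1 (0.171) and ACTB and MYH9 (0.182). The farthest was ACTA2 and TPM1 (1.33). Among 11339 named genes whose mean reached 1 FPKM, the pattern most like that of MYH9 was that of SYNM (0.0564), the intermediate filament protein synemin, and the next was POLR2G. For ACTA2 the closest were SLC18B1 (0.0792) and TBL2, for ACTB EIF5AL1 (0.0529) and TOMM34, and for ACTG1 SLC2A1 (0.0398) and EIF3D. For TPM1 they were TNFAIP8L1 (0.073) and CHD3, for TPM2 MFSD3 (0.1004) and FBXL8, for ACTN1 EEF2 (0.0345) and SLC35B2, and for TAGLN PRKCE (0.137) and LSM6. All points share the same 9 libraries, so these are descriptions.

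Around the 10 genes, 68 related genes in 9 lists were read in the same fits, of which 61 could be tested. None passed at day 3. From sh-Ptbp1-3d to sh-Ptbp1-7d, 4 of the 61 rose (6.56%, against 20.3% of all entries) and 30 fell (49.2%, against 15.5%), and the median change was -0.45 on the log2 scale. Counted against sh-Luci-3d, 5 of the 61 rose and 26 fell. All values that follow are log2 changes from day 3 to day 7 of the knockdown, at an FDR of 0.01.

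Among the regulators, 2 of 8 rose and none fell. SRF itself, at 7.28 ± 0.449 and 7.95 ± 0.722 FPKM, changed by 0.12 (adjusted p = 0.478). MRTFA rose from 11.97 ± 0.619 to 29.6 ± 1.46 FPKM (1.30, adjusted p = 1.41e-06), while MRTFB changed by -0.44 (adjusted p = 0.0626). ELK1, an SRF partner of the ternary complex type, rose by 0.39 (adjusted p = 0.00415), and SCAI, a repressor of MRTF activity, changed by -0.39 without passing (adjusted p = 0.0958). MYOCD, the smooth muscle coactivator, was listed at 0 throughout.

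Other genes known as SRF or MRTF targets mostly went down, with 1 rising and 10 falling of 15 tested. THBS1, the matrix protein thrombospondin-1, fell by 1.83 (adjusted p = 5.17e-07). VCL, which links adhesions to actin, fell by 1.13, MICAL2, a regulator of nuclear actin, by 0.97, and CCN1 by 0.92. AMOTL2 was the one that rose, by 0.84 (adjusted p = 1.44e-05), and is named here after its values were seen.

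Of the paralogs of TAGLN and CNN1, TAGLN2, CNN2 and CNN3 stood at far higher levels per length than those genes, while TAGLN3 was listed at 0 in 7 of the 9 libraries. TAGLN2 fell from 639 ± 28.7 to 138 ± 1.52 FPKM (-2.21, adjusted p = 1.05e-08). CNN3 fell by 0.50 and CNN2 did not pass (0.18, adjusted p = 0.162), so 2 of 4 in that list fell. Of 7 tested genes of the smooth muscle type, 4 fell and none rose. They were CALD1, the actin-binding caldesmon (-2.20), MYLK, the myosin light chain kinase (-1.75), SMTN (-0.93) and SYNM (-0.75). ACTA1, named here although its mean lay under 1 FPKM, was the 1 other actin that could be tested and changed by 0.15 (adjusted p = 0.750).

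Of 5 tested subunits of nonmuscle myosin II other than MYH9, 3 fell, namely MYL6B (-0.75), MYL12B (-0.50) and MYL12A (-0.48). MYL6 at -0.45 did not pass (adjusted p = 0.0305). Of 5 other tropomyosins and tropomodulins 1 rose and 2 fell. TPM3 and TPM4 fell by 0.67 and 0.60. TMOD1, which caps the pointed ends of tropomyosin-coated filaments, rose from 1.13 ± 0.260 to 28.1 ± 2.16 FPKM (4.54, adjusted p = 6.95e-08), the largest rise among the 61. TMOD2 changed by -0.41 (adjusted p = 0.130).

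Of 6 tested actin crosslinkers 3 fell and none rose. FLNA, filamin A, dropped from 459 ± 21.5 to 106 ± 11.7 FPKM (-2.12, adjusted p = 6.23e-08), SPTBN1 fell by 0.88 and ACTN4 by 0.80. Of 10 factors that bind monomers or turn filaments over, 6 fell and none rose. DSTN, the severing protein destrin, fell by 1.75, PFN1, profilin-1, by 1.20, CFL1, cofilin-1, by 0.80 and CAP2 by 0.78.

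**Figure D3:**
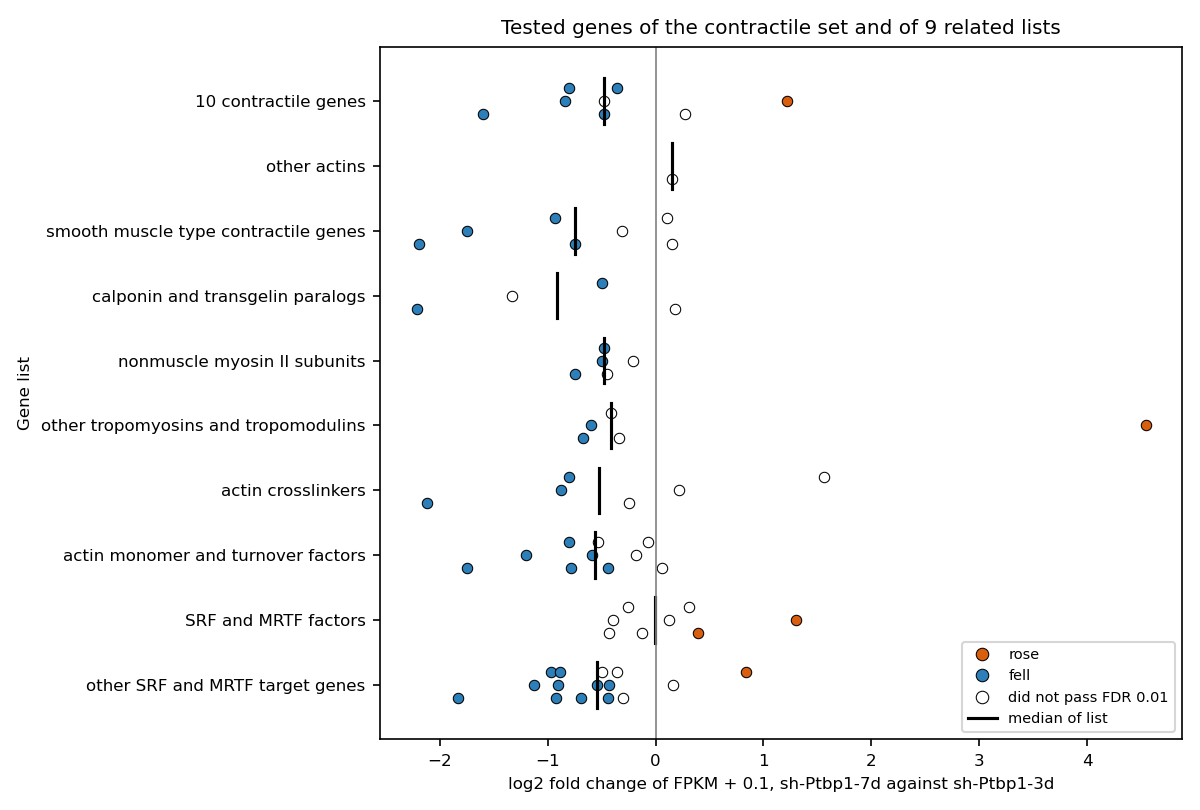
Change from day 3 to day 7 of the knockdown as a log2 fold (x axis) for each tested gene of the contractile set and of 9 related lists (y axis, 1 list per line, points spread vertically for display); orange rose and blue fell at an FDR of 0.01, white did not pass, and the bar is the list's median. The median lies below 0 in 7 of the 9 related lists by more than 0.1, and the largest rises that passed in those lists are TMOD1 at 4.54 and MRTFA at 1.30.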

How the data were processed

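The 9 libraries were grouped by their titles. The authors deposited FPKM per gene and library, and the submitters' processing notes name GRCh38 and HISAT2. Settings, strand and annotation release are not given in the sources used here. Assembled loci make up 2363 of the 22295 entries. Read depth is unknown, and the sum of all FPKM ran from 367412 to 404922 per library.

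Here log2(FPKM + 0.1) of the 15551 entries with a mean of at least 0.1 FPKM was fitted with limma 3.58.1 (R 4.3.3), in 1 model of 3 groups with an intensity trend and Benjamini-Hochberg adjustment. The FDR was 0.05 at day 3 and 0.01 at day 7. The study's methods give 0.05 for the day 3 groups and 0.01 for day 7 against day 3 of the knockdown. They set none for day 7 against the control. They also ask for a fold change above 2, which calls here did not need. On simulated data the fit recovered 190 of 200 genes changed by 1.5 (log2), all drawn from genes at higher levels with little spread. Among the members only TPM1 changed by that much, and recovery of smaller changes was not simulated. Ratios and shares were tested by exact permutation over libraries with scipy 1.17.1. MYL9 to MYH9 could not be tested, leaving 12 of the planned ratio tests. Genes of related lists were named by rule, as up to 4 per list with the largest changes at a mean of at least 1 FPKM, beside SRF, the MRTF genes, MYOCD, TPM4 and ACTN4, and ACTA1 and AMOTL2 were added. Some genes of the planned lists, and 1 list, are not reported here. Positions are from GENCODE v29. The members and lists were chosen with earlier results of these data known. Other scalings, pseudocounts, filters, fits and left-out libraries were tried as alternatives.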

Additional observations from a re-analysis of the deposited data

How the results depend on the processing

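Each fitted result had 20 alternatives, which were run one at a time. Over them, 0 to 1 members passed between the day 3 groups, 4 to 7 from sh-Ptbp1-3d to sh-Ptbp1-7d and 4 to 6 from sh-Luci-3d to sh-Ptbp1-7d. The only member to pass at day 3 was TPM2, without sh-Luci-3d replicate 3. ACTA2, TPM1 and MYH9 passed in every alternative of both day 7 comparisons. Signs that changed belonged to differences that had not passed. Under quantile normalization, ACTB at day 3 became -0.0806, ACTN4 at day 3 -0.0285 and TAGLN at day 7 against sh-Luci-3d -0.0214, and ACTN4 at day 3 became -0.00704 in TPM units. The members' share of all FPKM differed from sh-Ptbp1-3d to sh-Ptbp1-7d by -0.353 percentage points as reported, -0.428 without assembled loci and mitochondrial genes and -0.28 under quantile normalization, and against sh-Luci-3d by -0.363 as reported and -0.454 without those loci and genes. The cause of these shifts was not tested. With 1 library left out at a time, day 3 differences ran from -0.141 to 0.0294 for ACTA2, -0.0148 to 0.0906 for ACTB, -0.241 to 0.0855 for TAGLN, -0.0947 to 0.034 for TPM1, -0.00437 to 0.0816 for ACTN1, -0.0316 to 0.0162 for TPM4 and -0.0144 to 0.0628 for ACTN4, and TPM2 at day 7 against sh-Luci-3d ran from -0.0324 to 0.347.

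Replicate numbers are shared between groups, but libraries of the same number did not deviate together (9 correlations from -0.03 to 0.05), and 1 of 9 libraries matched its own number best. With the replicate block, 0, 6 and 6 members passed in the 3 comparisons, as without it, and the PTBP1 and PTBP2 calls at day 3 were lost (adjusted p = 0.0583 and 0.0779). Over all entries 5 passed at day 3 as reported, 0 with the replicate block and between 0 and 986 with 1 library left out, the last without sh-Luci-3d replicate 3. Low FPKM limits TAGLN, CNN1 and MYL9, whose read counts are unknown.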
